A study of Mus musculus with 7 samples.

Results

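The Wnt ligand genes, the Frizzled receptor genes and the genes of 5 further Wnt receptors or co-receptors (Lrp5, Lrp6, Ror1, Ror2 and Ryk) were described in mouse basal cell carcinoma, in newborn epidermis and in a carcinoma cell line. They were chosen by symbol from the array annotation, with no measured value used, as every probe set assigned to exactly 1 such gene. This gave 69 of the 34945 probe sets that carry 1 gene name, for 34 of 18193 genes: 19 ligands, 10 Frizzled receptors and the 5 others. RNA was hybridised to 7 single-channel Affymetrix arrays, and each value is a signal intensity in array units. Dissected basal cell carcinoma gave 2 arrays, and normal epidermis of mice on the day of birth (P0) gave 2 arrays. PDKC1, a mouse basal cell carcinoma line seeded in 6-well plates, gave 3 arrays, of untreated cells (0 h) and of cells exposed for 6 h or 10 h to cyclopamine, which inhibits the Hedgehog transducer Smoothened. Genotype, strain, age of the tumour-bearing mice, cyclopamine dose and vehicle, and whether the replicates came from separate animals were not given in the sources used here. For that reason p-values cover just the spread among these arrays, which may be technical. The epidermis was newborn, so a difference in age, if there was one, and the carcinoma cannot be told apart.

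Wnt proteins are secreted, lipid-modified signals that bind the cysteine-rich domain of Frizzled receptors at the cell surface. In the beta-catenin branch a Wnt joins a Frizzled to the co-receptor LRP5 or LRP6, which stabilises beta-catenin and lets it act with TCF/LEF factors in the nucleus. In other branches ROR1, ROR2 and RYK serve as receptors or co-receptors, often for WNT5A, and cell shape and polarity change without beta-catenin. In skin, Wnt signalling is known for starting hair follicles, for their regrowth and for renewal of basal keratinocytes.

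RNA quality and tissue content differed between the groups compared. All 7 arrays had been brought to the same trimmed mean, and the median probe set was at 118.2 and 127.9 in the tumours against 71.0 to 78.1 on the other 5 arrays. The 3' to 5' ratio of the Actb control was 11.3 and 93.1 in the tumours, 2.84 to 3.98 in epidermis and 1.15 to 1.21 in PDKC1, and that of Gapdh was 10.6 and 15.4, 4.52 to 5.27 and 0.699 to 0.741. Of all genes 16.6% were called higher and 12.5% lower in tumour by the limma comparison described with the members. Of 12 fibroblast and matrix markers 10 were higher in the tumours, with a summed intensity of 93434 to 113355 against 22683 to 23292 in epidermis and 7075 to 7757 in PDKC1. Of 8 skeletal muscle markers 3 were higher, summing to 15136 in tumour 1, 3020 in tumour 2 and 475 to 521 in epidermis, and of 8 endothelial markers 3 were higher. Of 10 spinous and granular keratinocyte markers 9 were lower, and of 8 hair follicle epithelium markers 5 were higher and 2 lower. Krt1 was at 39199 and 40934 in epidermis, against 6580 and 7802 in the tumours and 28.3 in untreated PDKC1. Of the basal keratins in untreated PDKC1, Krt5 was at 31322 and Krt14 at 33585, but Krt15 at 957.0, against 13433.7 to 30782.5 in the tissues. The epidermis arrays also carried markers of other cells. The 6 macrophage markers summed to 7060 to 8448 in epidermis and 10269 to 10616 in the tumours. The 6 melanocyte markers summed to 12435 to 14752 and 14493 to 16632. Shh, of the hair follicle list, read 3827 and 5447 against 200 and 352. In tissue RNA, fewer cells of a type and less RNA per cell cannot be told apart. The part of these differences in the results that follow was not tested, except where a value is given.

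Of the members called between tumour and epidermis, those that rose were receptor genes and those that fell were ligand genes, a split that was not tested and did not hold under every alternative. Each gene was represented by its brightest probe set over all 7 arrays, PDKC1 included, on a log2(intensity + 16) scale, which understates the change of dim genes. On the tissue arrays alone another probe set was brighter on average for Wnt7a, Fzd2 and Ryk. The counts that follow were not repeated with that choice. By limma, with p adjusted across the 18193 genes (Benjamini-Hochberg) and 0.05 as the threshold, 6 of 34 members were higher in tumour and 4 were lower. Of all genes, 16.6% were called higher and 12.5% lower, so the members' counts lay near the background in both directions. All 6 higher members were among the 15 receptor genes (Fzd1, Fzd4, Fzd7, Fzd9, Lrp6 and Ror2), and all 4 lower members were among the 19 ligands (Wnt2, Wnt4, Wnt7b and Wnt10b). The median log2 difference, tumour minus epidermis, was -0.47 over the ligands, 0.22 over the Frizzled genes and 0.03 over the 5 others, against 0.09 over all genes. The 2 groups of arrays did not overlap for 11 members that were higher (35.8% of all genes) and 10 that were lower (29.8% of all genes). Without epidermis 1, 2 members were called higher and 0 lower, and without epidermis 2, 3 were higher and 1 lower. With each array centred on its own median, which moved the median of all genes to -0.43, 5 members were higher and 10 lower, and the receptor genes Fzd5, Fzd10 and Ryk were then among the lower ones. The share of higher calls among all called genes was 28.8% with centring against 57.1%. The replicate block called Ryk lower as well, and 1 probe set of Fzd3 fell. Quantile normalization called Fzd10 lower. With dim genes left out Wnt5a was called higher and Ryk lower. With all 7 arrays in 1 fit the ligands Wnt5a and Wnt9a were called higher and Ryk lower. Without tumour 1, which leaves 1 tumour array, the differences of the receptor genes Fzd2 and Ryk were -0.66 and -1.49.

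**Figure D1:**
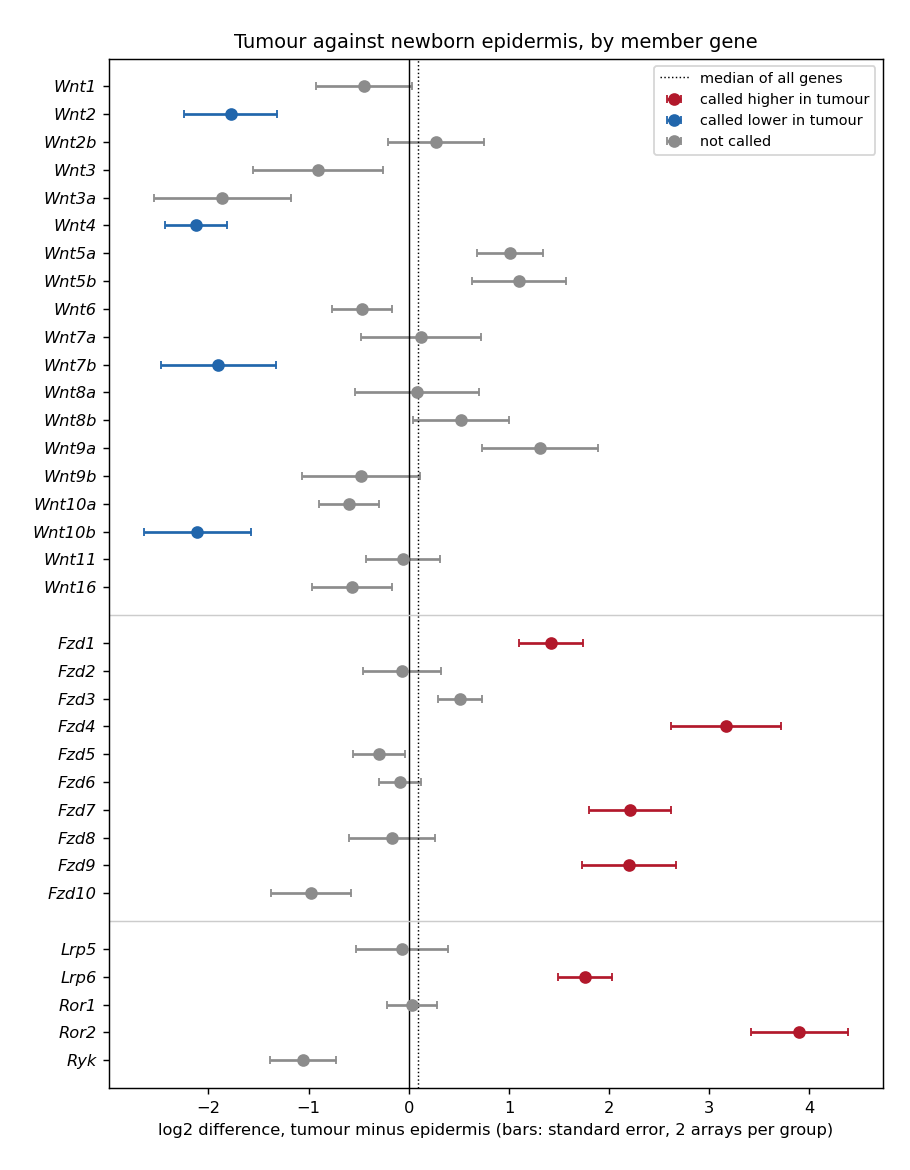
Log2 difference, tumour minus epidermis, of each member gene (points, with the standard error as bars, 2 arrays per group), with the dotted line at the median of all genes, 0.09. Red points are receptors called higher, from 1.42 for Fzd1 to 3.90 for Ror2, blue points are ligands called lower, from -1.78 for Wnt2 to -2.12 for Wnt4, and 24 members are grey.

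Wnt4, a ligand of developing epithelia that keratinocytes also make, had the largest fall among the ligands that stayed bright in both tissues. Its intensity was 5912.7 and 5584.6 in epidermis and 1773.0 and 963.5 in the tumours. Both tumours lay far under both epidermis arrays. The log2 difference was -2.12 ± 0.31 (SE, 2 arrays per group; adjusted p = 0.0036), a 4.35-fold fall. A second probe set of Wnt4 gave 2724.7 and 2302.8 against 745.8 and 659.0, with -1.81 ± 0.22 when all probe sets were fitted singly (adjusted p = 0.00204). Wnt4 was called in every alternative except without epidermis 1 (adjusted p = 0.0516). In PDKC1 the brighter probe set read 410.3, 369.5 and 505.9 at 0 h, 6 h and 10 h, below every tissue array.

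Wnt7b, a ligand of lung and kidney epithelium, was also lower, but the tumours differed from each other. The epidermis arrays read 3538.3 and 3576.1, tumour 1 read 1880.0 and tumour 2 read 469.4. The log2 difference was -1.90 ± 0.57 (adjusted p = 0.0464), and it was -2.88 without tumour 1 and -0.91 without tumour 2. The call was lost with quantile normalization (adjusted p = 0.0734), without a variance trend (0.108), and without epidermis 1 (0.179) or 2 (0.18). Its second probe set read 121.5 and 101.5 in epidermis and 44.6 and 46.3 in the tumours, which was not called (-1.05 ± 0.45, adjusted p = 0.133).

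The other called ligands were dim. Wnt10b, a ligand that promotes hair follicle growth, read 144.6 and 104.8 in epidermis and 6.5 and 30.5 in the tumours. Its log2 difference was -2.11 ± 0.53 (adjusted p = 0.026). Wnt2, a ligand best known from lung and vessels, read 84.5 and 65.3 against 15.8 and 5.7, a difference of -1.78 ± 0.46 (adjusted p = 0.0293). For neither gene did the groups overlap. Since both tumour arrays of Wnt2 and 1 of Wnt10b were under the pseudocount of 16 added before taking logs, the size depends on it: with 4 and 64 the differences were -2.74 and -1.20 for Wnt10b and -2.50 and -0.89 for Wnt2. Both calls were lost without either epidermis array (adjusted p from 0.0906 to 0.143), that of Wnt10b also without tumour 1 (0.0578) and that of Wnt2 without tumour 2 (0.088). In PDKC1, Wnt10b read 58.3, 33.1 and 46.6 and Wnt2 read 8.8, 7.0 and 30.8, all under the median probe set of their arrays.

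Among the ligands that were not called, 4 had tumour arrays above both epidermis arrays. Wnt5a, the ligand most tied to ROR2 and to cell movement, read 415.2 and 348.6 in the tumours and 158.9 and 205.1 in epidermis, a log2 difference of 1.01 ± 0.33 (adjusted p = 0.0596). It was called only with dim genes left out (0.0316) and with all 7 arrays in 1 fit (0.00477). Wnt9a, a ligand of joint and bone development, read 159.5 and 90.2 against 19.5 and 69.2 (1.31 ± 0.58, adjusted p = 0.141), and the fit of all 7 arrays called it (0.0378). Wnt5b, the near relative of Wnt5a, read 104.9 and 180.6 against 67.2 and 45.9 (1.10 ± 0.47, adjusted p = 0.127). Wnt8b, a ligand of the developing brain, was under the array medians throughout (0.52 ± 0.48, adjusted p = 0.479).

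A further 4 uncalled ligands had both tumours under both epidermis arrays. Wnt3a, a strong activator of beta-catenin, read 116.6 and 202.4 in epidermis and 8.9 and 72.3 in the tumours (-1.86 ± 0.68, adjusted p = 0.0847). It was called with quantile normalization (0.0439), with centring (0.031), without tumour 2 (0.0104), with all 7 arrays (0.0275) and with the replicate block (0.0301). Wnt10a, needed for teeth, hair and sweat glands, read 545.1 and 513.2 against 417.4 and 280.9 (-0.60 ± 0.30, adjusted p = 0.19). Centring called Wnt10a lower, as did leaving out tumour 1. Wnt6 read 523.4 and 599.2 against 480.0 and 330.6 (-0.47 ± 0.30, adjusted p = 0.287), and Wnt16 read 129.0 and 143.6 against 93.6 and 80.0 (-0.57 ± 0.40, adjusted p = 0.348). Both are ligands with known expression in skin. Centring called Wnt6 lower but not Wnt16.

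The other 7 ligands overlapped between the tissues on their brightest probe set. Wnt11, a ligand of the polarity branch, read 166.1 and 170.3 in the tumours and 148.8 and 207.8 in epidermis (-0.06 ± 0.37, adjusted p = 0.927). Wnt3, a ligand of early embryo patterning, read 52.8 and 25.6 against 41.0 and 162.1 (-0.91 ± 0.65), with 1 epidermis array between the tumours and the other above both. Wnt7a is described with the probe sets that disagree. Wnt1, Wnt2b, Wnt8a and Wnt9b were under the median probe set on all 7 arrays, with intensities from 5.2 to 67.7 and log2 differences from -0.48 to 0.27. None was called, which does not show that they are absent from these tissues.

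**Figure D2:**
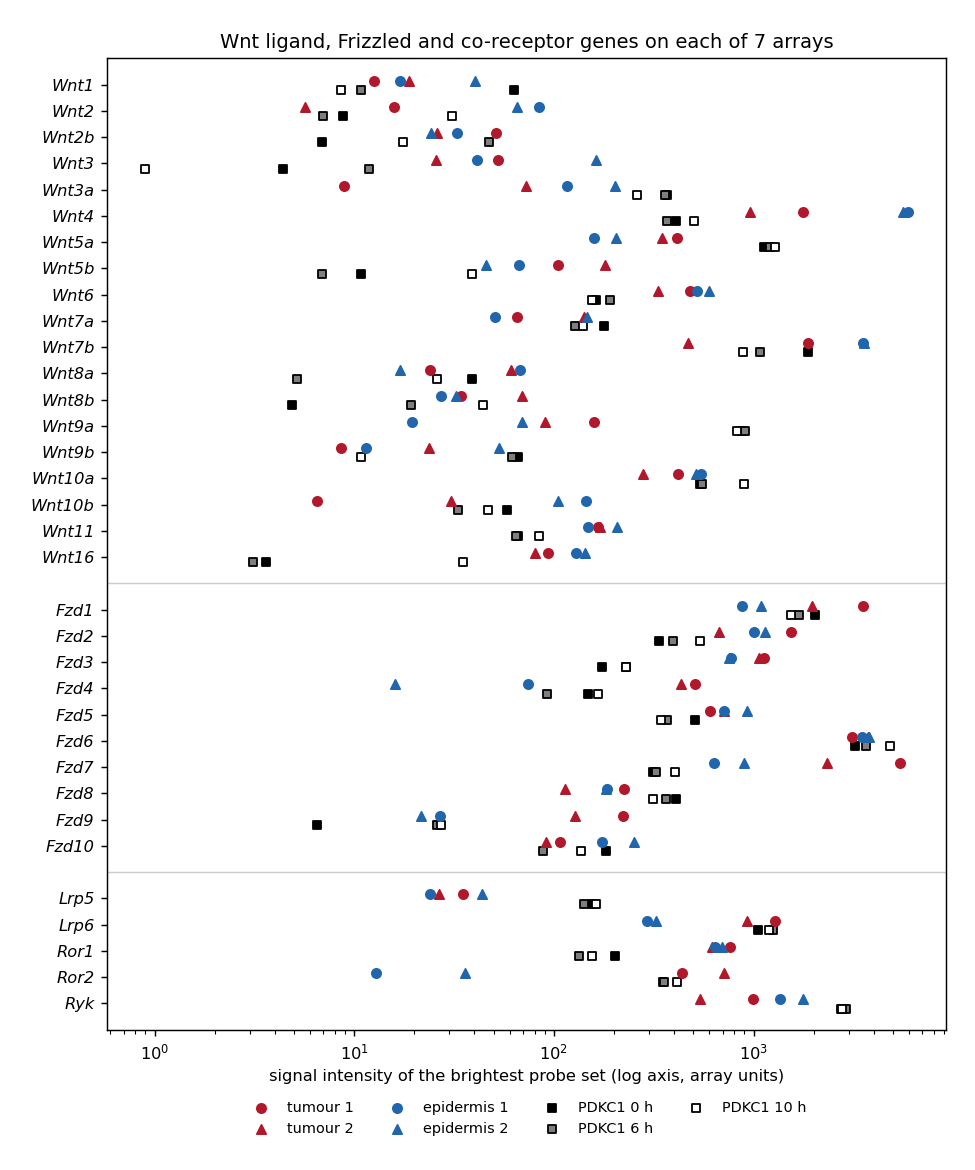
Signal intensity of the brightest probe set of each member gene on each of the 7 arrays, on a log axis (red, tumour; blue, epidermis; squares, PDKC1 at 0 h, 6 h and 10 h). Red and blue points separate for Wnt4, Fzd4, Fzd7, Lrp6 and Ror2, and for Wnt5a and Wnt9a the PDKC1 squares, at 1124.7 to 1287.1 and 827.3 to 907.8, lie to the right of every tissue array.

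Of the 10 Frizzled genes 4 rose in the tumours. Fzd4, the receptor of norrin in vessels and a general Wnt receptor, read 508.7 and 431.7 in the tumours and 74.2 and 16.1 in epidermis. The groups were far apart, with a log2 difference of 3.17 ± 0.55 (adjusted p = 0.007), a 9.01-fold rise. With a pseudocount of 64 it was 2.34, and it was called without any single array (2.43 to 3.92). Endothelial markers summed to 1164 to 1418 in the tumours, 401.9 to 424.0 in epidermis and 220.5 to 251.0 in PDKC1, where Fzd4 read 148.1, 91.9 and 166.3. Of these 8 markers 3 were higher, among them Vwf at 592.4 and 461.6 in the tumours against 33.7 and 71.0. Pecam1, Cdh5, Kdr, Tie1 and Emcn were not called. The part of endothelial cells in the rise of Fzd4 was not tested.

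Fzd7, a receptor of stem and progenitor cells in several epithelia, read 5429.1 and 2321.7 in the tumours and 636.5 and 897.8 in epidermis. Every tumour array exceeded every epidermis array, with a log2 difference of 2.21 ± 0.41 (adjusted p = 0.00876), a 4.62-fold rise. The difference was 2.82 without tumour 2, and the call was lost without epidermis 1 (adjusted p = 0.0849). PDKC1 read 312.3, 323.8 and 403.7, under all 4 tissue arrays. Fzd9, a receptor known from brain, muscle and bone, was lower in level: 221.9 and 127.3 against 26.9 and 21.5, a difference of 2.20 ± 0.47 (adjusted p = 0.0147). Its size depended on the pseudocount, at 2.62 with 4 and 1.41 with 64, and the call was lost without epidermis 1 (adjusted p = 0.0836) or 2 (0.0964). In PDKC1 Fzd9 read 6.5, 25.9 and 27.2, under the array medians.

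Fzd1, a receptor of the beta-catenin branch, read 3533.5 and 1957.8 in the tumours and 871.5 and 1093.5 in epidermis. The groups did not overlap, and the difference was 1.42 ± 0.32 (adjusted p = 0.0171), a 2.67-fold rise. It was 0.90 with centring (adjusted p = 0.0598) and was not called without a variance trend (0.0596) or without epidermis 1 (0.154) or 2 (0.0919). PDKC1 read 2021.3, 1689.8 and 1534.2. These lie between the tissues or within the tumour range. The other Fzd1 probe set read 330.9, 304.1 and 339.3 in PDKC1, above every tissue array (23.8 to 90.0).

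The remaining Frizzled genes were not called. Fzd6, a receptor that orients hair follicles, was bright everywhere, at 3113.7 and 3732.2 in the tumours, 3483.0 and 3771.2 in epidermis and 3208.0 to 4840.4 in PDKC1. Its difference was -0.09 ± 0.21 (adjusted p = 0.799). A dimmer Fzd6 probe set read 1264.2, 1342.5 and 1833.5 in PDKC1, against 58.5 to 250.1 in the tissues. Fzd5 read 601.9 and 712.7 in the tumours and 708.0 and 923.5 in epidermis (-0.30 ± 0.26, adjusted p = 0.443), and centring called it lower (-0.81, adjusted p = 0.0446). Fzd8 read 225.6 and 113.3 against 184.1 and 182.3 (-0.17 ± 0.43). Both belong to the Frizzled genes of the beta-catenin branch. Fzd10 read 107.3 and 91.3 against 174.8 and 252.9, lower in both tumours (-0.98 ± 0.40, adjusted p = 0.114), and was called with quantile normalization (-1.42) and centring (-1.49). Fzd2 and Fzd3 differed by -0.07 ± 0.39 and 0.51 ± 0.22 on their brightest probe sets, which their other probe sets did not share.

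Ror2, the receptor kinase that carries WNT5A signals, had the largest difference of the 34 members. It read 438.8 and 711.7 in the tumours and 12.8 and 35.7 in epidermis. The log2 difference was 3.90 ± 0.48 (adjusted p = 0.00211), a 14.9-fold rise. Its second probe set read 311.5 and 463.1 against 4.1 and 12.8 (4.04 ± 0.48, adjusted p = 0.00184). Ror2 was called in every alternative, with 2.84 at a pseudocount of 64 and 4.45 at 4, since epidermis lay near the pseudocount. Fibroblast and matrix markers moved the same way. Their part in the rise was not tested. The same list in PDKC1 held markers that were low, such as Pdgfrb at 3.6 to 26.3, and others that were bright, Col6a1 at 2534.5 to 3277.4 and Fn1 at 3465.0 to 3926.7. On these arrays the brighter Ror2 probe set read 353.5, 355.5 and 414.5 and the other read 17.9, 79.1 and 72.5.

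Lrp6, the co-receptor that passes Wnt binding on to the beta-catenin complex, read 1275.8 and 923.6 in the tumours and 293.2 and 325.8 in epidermis. The groups did not overlap, and the difference was 1.76 ± 0.27 (adjusted p = 0.00459), a 3.39-fold rise. It was not called without epidermis 1 (adjusted p = 0.0709) or 2 (0.0553). PDKC1 was at the tumour level, with 1054.6, 1258.7 and 1188.5. The second Lrp6 probe set read 335.8, 350.4 and 297.4 in PDKC1, above every tissue array (141.4 to 164.7). Lrp5, the close relative of Lrp6, was under the array medians in every tissue array, at 34.9 and 26.6 against 24.0 and 43.5 (-0.07 ± 0.46). In PDKC1 Lrp5 read 154.5, 141.6 and 162.2.

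Ror1 and Ryk were not called. Ror1, the other ROR kinase, read 760.0 and 616.6 in the tumours and 644.4 and 697.4 in epidermis (0.03 ± 0.25, adjusted p = 0.945). Ryk, a kinase-like Wnt receptor, read 998.5 and 541.9 against 1354.5 and 1779.1, lower in both tumours (-1.06 ± 0.33, adjusted p = 0.0533). It was called with centring (adjusted p = 0.00903), with dim genes left out (0.0431), without tumour 1 (0.00139), with all 7 arrays (0.0104) and with the replicate block (0.0471). A second probe set of Ryk read 1452.9 and 1215.4 in the tumours and 1538.5 and 1994.2 in epidermis, and was not called (-0.39 ± 0.24). It was brighter than the first on every tissue array. The first stood for Ryk by its mean over all 7 arrays, PDKC1 included, so the calls above rest on the probe set that was dimmer in the tissues.

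Several genes gave different answers on different probe sets. Of the 69 probe sets fitted singly, 9 were called higher (16.6% of all 34945) and 7 lower (10.7%). Of the 7 called genes with several probe sets, Ror2 and Wnt4 had a second called probe set. For Fzd1, Fzd4, Fzd7, Lrp6 and Wnt7b the call rested on 1 probe set. The second Lrp6 probe set read 164.7 and 158.8 in the tumours and 141.4 and 141.7 in epidermis (0.17 ± 0.37, adjusted p = 0.781), and that of Fzd1 read 83.6 and 90.0 against 81.5 and 23.8 (0.72 ± 0.57). The other probe sets of Fzd4 gave 0.73 ± 0.53 and 0.02 ± 0.53, and that of Fzd7, at most 14.4 in the tissues, gave -0.22 ± 0.38. So for these receptors the rise was seen on the brightest probe set and not called on the others. When a gene's probe sets were averaged, Fzd4 (1.30, adjusted p = 0.109) and Fzd7 (0.99, 0.0592) were not called. Of 15 uncalled genes with several probe sets, 3 had another that was called. In a further 7 of them (Fzd5, Fzd6, Fzd8, Ryk, Wnt5b, Wnt8b and Wnt9a) a probe set had the other sign and none was called, with differences from -0.34 to 0.68. The probe sets of Wnt3 and Wnt5b are of the kind that may match other transcripts, so their values are uncertain.

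Wnt7a, a ligand of epidermis and limb, had the widest spread. Its brightest probe set read 65.6 and 141.6 in the tumours and 50.9 and 146.9 in epidermis (0.12 ± 0.60). Another probe set of Wnt7a read 397.1 and 339.5 in epidermis and 8.7 and 60.8 in the tumours (-3.14 ± 0.60, adjusted p = 0.00964), and 6.4 to 8.5 in PDKC1, where the brightest read 127.4 to 178.4. The first therefore showed no difference beyond its spread, while the other fell in both tumours. Fzd2, a receptor of WNT5A among others, had 3 bright probe sets. They read 1546.8 and 669.6 against 1004.1 and 1142.4, 1195.2 and 867.4 against 665.8 and 1161.0, and 1576.6 and 3300.5 against 697.0 and 508.9. Only the last was called (1.91 ± 0.37, adjusted p = 0.0104). On the tissue arrays alone the called probe sets of Wnt7a and Fzd2 were the brightest of their genes on average. Both genes count as uncalled because PDKC1 entered the choice of probe set. Fzd3, a receptor of axon and hair polarity, had 6 probe sets that pointed both ways. The brightest read 1129.2 and 1059.1 against 772.5 and 753.6, a second read 207.7 and 162.0 against 436.2 and 632.0 (-1.44 ± 0.33, adjusted p = 0.0185), and a dim one was called higher (1.55 ± 0.45, adjusted p = 0.0429). Where in the transcripts these probe sets lie was not analysed here, and whether the 3' to 5' ratios of the tumours play a part was not tested.

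**Figure D3:**
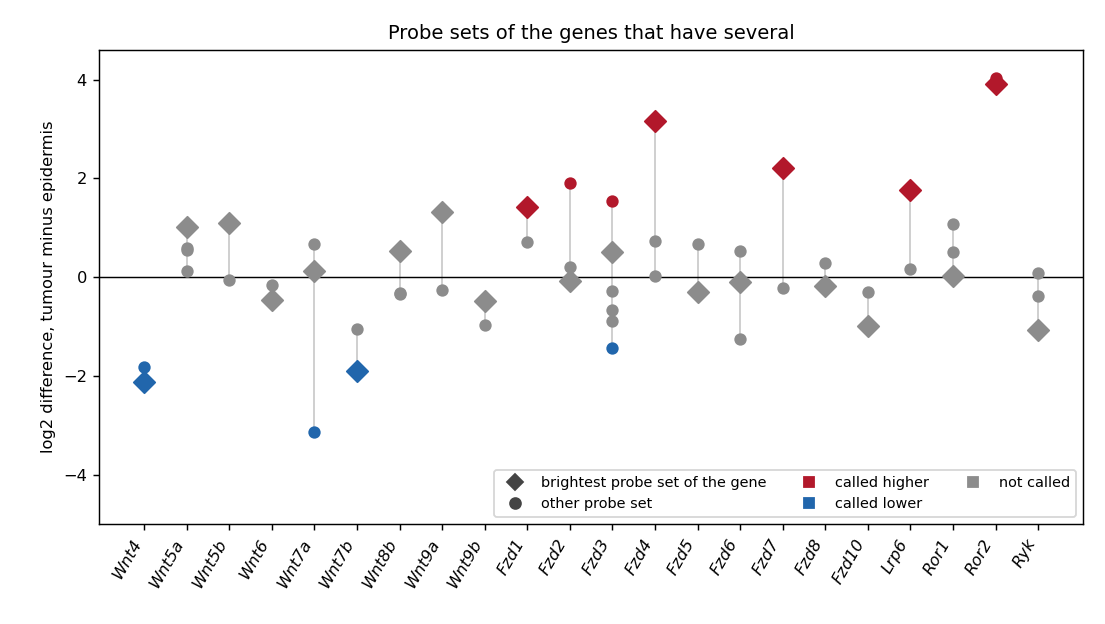
Log2 difference, tumour minus epidermis, of every probe set of the 22 members with more than 1 (diamonds, the brightest of the gene; circles, the others; red and blue, called higher and lower). The probe sets of Ror2 and of Wnt4 lie close together, at 3.90 and 4.04 and at -2.12 and -1.81, while those of Wnt7a run from -3.14 to 0.68 and those of Fzd3 from -1.44 to 1.55.

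RefSeq promoter windows (GRCm38.p6, 250 bases before to 50 after each start) were found for 24 of the 34 genes, called or not, 27 windows in all. Lrp6 and Wnt7b have none. Their median count of CG pairs was 31, against 7 over all 32851 windows. The core of the GLI binding site, CCACCCA or TGGGTGG on the other strand, was in 2 of the 27 (7.41%), those of Ror2 and Fzd7, against 9.30% of all windows. The TCF/LEF letters CTTTGAA were in 0 and CTTTGAT in 2 (Wnt11 and Wnt5b), against 5.14% and 3.73% of all windows. The TATA box letters TATAAA were in 3 windows (11.1%, against 13.6%). All were searched on both strands, and a match of letters is a description, not a binding site. Fzd1, Fzd4 and Fzd9, which rose, and Wnt10b, which fell, have windows without the GLI core. The far 120 bases of 4 windows are shown, from 250 to 131 bases before the start, 5′ to 3′ on the gene's strand: Ror2 and Fzd7, which rose and hold the GLI core (in capitals, 245 and 159 bases before the start), and Wnt4 and Wnt2, which fell and hold none. The Ror2 stretch is chr13:53286255-53286374 (minus strand), Fzd7 chr1:59481897-59482016 (plus), Wnt4 chr4:137277385-137277504 (plus) and Wnt2 chr6:18030576-18030695 (minus).
Ror2: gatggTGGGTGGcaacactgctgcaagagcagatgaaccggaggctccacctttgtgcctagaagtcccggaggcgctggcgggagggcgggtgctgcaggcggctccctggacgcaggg
Fzd7: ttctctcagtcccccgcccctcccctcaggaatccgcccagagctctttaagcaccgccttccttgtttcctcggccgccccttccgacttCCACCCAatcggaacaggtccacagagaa
Wnt4: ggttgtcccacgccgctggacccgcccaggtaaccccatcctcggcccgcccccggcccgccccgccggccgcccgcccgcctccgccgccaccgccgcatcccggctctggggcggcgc
Wnt2: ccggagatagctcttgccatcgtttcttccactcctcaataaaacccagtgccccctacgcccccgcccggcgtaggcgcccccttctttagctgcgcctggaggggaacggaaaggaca
The Wnt4 stretch holds 19 CG pairs, against 7 in Ror2, 7 in Fzd7 and 9 in Wnt2.

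Untreated and treated PDKC1 cells differed from the tissues in a few members by a wide margin. No test was made, since there was 1 array per time. The line was labelled from 2000 ng of RNA against 100 ng for each tissue array. Its 3' to 5' ratios of Actb were 1.15 to 1.21, against 2.84 to 93.1 in the tissues. So line, culture, input and RNA quality cannot be told apart. On the brightest probe set, all 3 PDKC1 arrays were at least 2-fold above all 4 tissue arrays for 3 members (5.03% of all genes). They were at least 2-fold below all 4 tissue arrays for 2 members (7.72% of all genes). The 3 above were Wnt5a, Wnt9a and Lrp5. Wnt5a read 1124.7, 1207.2 and 1287.1 at 0 h, 6 h and 10 h, and a second probe set read 1135.8, 1142.3 and 1206.0. A dim Wnt5a probe set, at 81.8, 71.3 and 106.5, overlapped the tissues (42.9 to 81.5). Wnt9a read 875.7, 907.8 and 827.3, where the brightest tissue array read 159.5. The second Wnt9a probe set read 56.4, 117.4 and 97.6, where the brightest tissue array read 40.7. By their brightest probe sets the ligand Wnt5a and the receptor gene Ror2 were both over the array median in the line. The second Ror2 probe set was over it at 6 h only, at 79.1 against 72.1. The 2 below were Fzd3, at 175.2, 230.2 and 229.9, and Ror1, at 202.8, 133.4 and 154.8. The other, dim Ror1 probe sets overlapped the tissues.

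Smaller shifts between line and tissue followed no single direction. On the brightest probe set Ryk read 2732.3, 2896.0 and 2762.3 in PDKC1, Wnt3a read 367.7, 359.0 and 261.7, and Fzd8 read 407.3, 363.0 and 312.0. Each was above all 4 tissue arrays by less than 2-fold. The other Ryk probe sets, at 1046.8, 1189.3 and 1176.4 and at 134.3, 112.2 and 123.7, were below all 4 tissue arrays. Fzd2 (334.7, 395.7 and 539.9), Fzd5 (509.7, 366.8 and 346.0) and Wnt6 (162.8, 190.8 and 154.6) were below them by less than 2-fold. Wnt11 read 66.1, 65.0 and 84.5, Wnt5b 10.8, 6.9 and 39.1, Wnt16 3.6, 3.1 and 34.9, and Wnt3 4.4, 11.9 and 0.9. The second Wnt7b probe set, at 869.3, 436.9 and 366.5, was above every tissue array (44.6 to 121.5), which the brightest was not. So for Ryk, Fzd1, Fzd6, Lrp6 and Wnt7b the place of the line against the tissues depended on the probe set. By their brightest probe sets, 8 of the 19 ligands were over the median probe set on all 3 PDKC1 arrays. Of the 15 receptor genes 14 were. The share of all genes over it on all 3 arrays is not given here. By a looser measure, the brightest PDKC1 array over that array's median probe set, 11581 of the 18193 genes passed. Whether either family differed from all genes in this was not tested.

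Few members differed between the treated and untreated PDKC1 arrays, for which no test could be made. The Hedgehog target Gli1 read 841.9 at 0 h, 193.2 at 6 h and 189.6 at 10 h, and Ptch1 read 2184.8, 686.2 and 549.5, so the pathway's targets were lower on the treated arrays. Of the 34 members 23 had their brightest PDKC1 array over that array's median probe set, and these were followed. On the brightest probe set, none was at least 2-fold below 0 h at both times (1.01% of all genes over the median). None was at least 2-fold above on that probe set (0.924% of all genes over the median). The median log2 difference of the 23 was -0.019 at 6 h and 0.064 at 10 h, against -0.01 and 0.01 over all such genes. At both times 17 of them lay within 1.5-fold of 0 h.

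Of these 23 members Wnt7b had the largest difference that was seen at both times on the brightest probe set. It read 1864.9 at 0 h, 1081.6 at 6 h and 887.0 at 10 h, a log2 difference of -0.78 and -1.06. The second probe set read 869.3, 436.9 and 366.5, or -0.97 and -1.21. Both probe sets were thus lower at 6 h and again at 10 h, with no replicate to give the spread, and the gene was named after its values were seen. Of the 23, Wnt7b was the 1 member past 1.5-fold at both times on the brightest probe set. The second Ror2 probe set read 17.9, 79.1 and 72.5, or 1.49 and 1.38, where the brightest gave 0.01 and 0.22. For Wnt9a the second read 56.4, 117.4 and 97.6, or 0.88 and 0.65, where the brightest gave 0.05 and -0.08. Fzd4 differed by -0.60 at 6 h and 0.15 at 10 h. Fzd10 was at 182.4, 87.9 and 136.2, so its difference of -0.93 at 6 h was -0.38 at 10 h. At 10 h Wnt10a read 897.2 after 538.0 and 549.4 (0.72), Fzd6 read 4840.4 after 3208.0 and 3653.1 (0.59), and Fzd2 read 539.9 after 334.7 and 395.7 (0.66), while at 6 h the log2 differences were 0.03, 0.19 and 0.23. Wnt7a, with differences of -0.44 and -0.31, and Ror1, with -0.55 and -0.36, stayed under 1.5-fold on the brightest probe set.

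**Figure D4:**
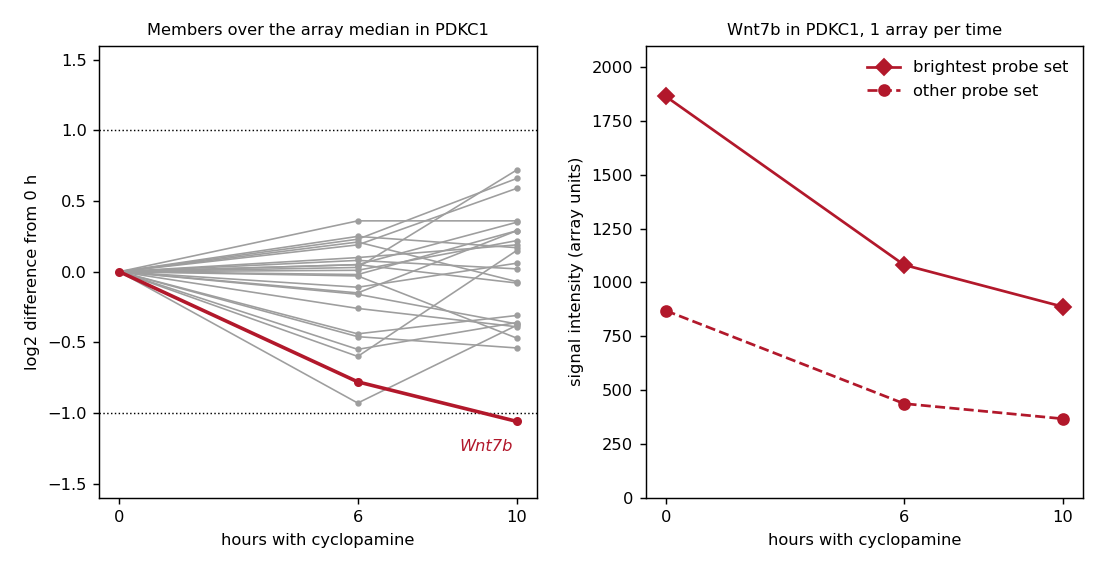
Left, log2 difference from 0 h of the 23 members over the array median in PDKC1, with dotted lines at 2-fold and Wnt7b in red; right, signal intensity of the 2 probe sets of Wnt7b by hours with cyclopamine, 1 array per time. Wnt7b is the single line under the lower dotted line at 10 h (-1.06), and its probe sets go from 1864.9 to 887.0 and from 869.3 to 366.5.

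Other genes of the pathway were set beside the members, and their counts are read against the 16.6% of all genes called higher and 12.5% called lower. Of 13 genes of Wnt release and of the R-spondin branch, 4 were higher in the tumours and 0 lower by limma (median log2 difference 0.37). They were the R-spondin receptors Lgr5 (3.78 ± 0.34), Lgr6 (2.37 ± 0.25) and Lgr4 (2.14 ± 0.21), which strengthen Wnt signals at the receptor and of which Lgr5 is also a hair follicle marker, and the glypican Gpc4 (0.99 ± 0.20). Porcn and Wls, needed to lipidate and to carry Wnt proteins, differed by 0.39 ± 0.23 and -0.46 ± 0.20 and were not called. Of 19 genes of the beta-catenin core 4 were higher and 2 lower (median 0.09): the kinase Csnk1g1 (1.82 ± 0.43), which acts on LRP6, Dvl1 (1.33 ± 0.21), which Frizzled binds, Csnk1g3 (1.32 ± 0.26) and Apc (1.09 ± 0.23) rose, and the kinases Csnk1e (-2.35 ± 0.29) and Csnk1a1 (-0.87 ± 0.22) fell.

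Of 11 measured TCF/LEF complex genes 5 were higher and 1 lower (median 0.55). The co-repressor Tle2 (4.39 ± 0.40) and the factors Tcf7l1 (2.27 ± 0.20) and Tcf7l2 (2.22 ± 0.29) rose, as did the co-activator Bcl9l (1.17 ± 0.25). The other two calls were Tle4, higher, and Tle3, lower. Of 11 measured planar cell polarity genes 1 was higher, Prickle2 (3.41 ± 0.28), and 2 were lower, the cadherin Celsr1 (-1.34 ± 0.24) and the formin Daam1 (-1.20 ± 0.22), with a median of 0.02. Of the 19 called genes of the 4 lists, 8 were called under every alternative that kept them. With probe sets averaged, Csnk1a1 (0.33), Daam1 (0.08), Tle3 (0.22) and Bcl9l (-0.04) changed sign and were not called. Under the same setting Csnk1g1 (0.85), Tle4 (0.88), Dvl1 (0.60), Apc (0.39) and Csnk1g3 (0.15) kept their sign and lost the call (adjusted p from 0.074 to 0.658).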

How the data were processed

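RNA abundance was measured on 7 arrays. Per the labels' protocols, column-purified RNA was labelled with biotin by the standard Affymetrix protocol, using 100 ng (tissue) or 2000 ng (PDKC1). The authors deposited a linear signal intensity per probe set. With the lowest and highest 2 percent left out, all arrays shared 1 mean; the software and scaling were not given in the sources used here, and no further normalization was applied. The array annotation gave 34945 probe sets 1 gene name; 932 with several, 9160 with none and 64 controls were left out. Each gene was represented by its brightest probe set, by mean log2(intensity + 16) over the 7 arrays. The tissue comparison used limma 3.58.1 under R 4.3.3 (eBayes with a variance trend, 2 against 2 arrays, two-sided, adjusted over 18193 genes). The fit was tested on simulated data. PDKC1 times had no test.

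All members are accounted for. Those over an array's median have their values printed, and up to 4 called genes of each pathway list are named by size; Apc, Csnk1a1, Tle3, Tle4, Porcn and Wls were added after their values were seen. The members, lists and alternatives were chosen with earlier results of these data known. Whether all 3 PDKC1 arrays lay 2-fold from all tissue arrays, and the promoter motifs, were chosen after the data were seen. The number of arrays limits the precision.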

Additional observations from a re-analysis of the deposited data

How the results depend on the processing

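Of the called members, all 10 were kept with a pseudocount of 4 or 64, with all 7 arrays in 1 fit and with the replicate block. With the replicate number as a block 12 members were called, 6 higher and 6 lower; the labels do not tie the numbers across tissues, the correlation of the replicate deviations over genes was -0.001, and beside Ryk and Wnt3a no call changed. Leaving out each array in turn gave 2 to 12 calls in all, 2 to 6 higher and 0 to 6 lower. The low ends came from leaving out an epidermis array. Leaving out any tissue array leaves 1 residual degree of freedom, with the lone array assumed to vary like the other group, and 12 and 10 members were called without tumour 1 or 2. The cause was not tested. Centring each array on its median gave 10 lower calls against 4. No called member changed sign. Uncalled members and named pathway genes that did were Fzd3 (-0.01), Ror1 (-0.49), Wnt2b (-0.25), Wnt7a (-0.40) and Wnt8a (-0.43) with centring; Fzd6 (0.14), Ror1 (-0.09), Wnt2b (-0.03), Wnt7a (-0.26) and Wnt8a (-0.28) with quantile normalization; Fzd2 (0.68), Fzd3 (-0.20), Fzd5 (0.19), Fzd8 (0.06), Wnt7a (-0.78), Wnt8b (-0.05), Csnk1a1 (0.33), Bcl9l (-0.04), Tle3 (0.22) and Daam1 (0.08) with probe sets averaged. When 1 array was left out, the difference ran across 0 for Fzd2 (-0.66 to 0.52), Fzd6 (-0.22 to 0.04), Fzd8 (-0.62 to 0.28), Lrp5 (-0.35 to 0.22), Ror1 (-0.12 to 0.18), Wnt2b (-0.07 to 0.61), Wnt7a (-0.52 to 0.76), Wnt8a (-0.59 to 0.76), Wnt9b (-1.15 to 0.18) and Wnt11 (-0.28 to 0.16). Leaving out dim genes removed 15 of the 34 members, Fzd9, Wnt2 and Wnt10b among them. In PDKC1, 1 member passed at 1.5-fold (Wnt7b) and 1 with no filter on level (Wnt1, at 63.5, 10.8 and 8.6), against 0. Detection calls were not used here, so how far members under the median probe set stand above background was not tested.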

Other observations

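Tumour 1 and tumour 2 differed in several members by more than the epidermis arrays did. On the brightest probe sets Wnt7b was 4.01-fold higher in tumour 1 and Fzd7 2.34-fold. The other probe sets did not show this, at 44.6 in tumour 1 and 46.3 in tumour 2 for Wnt7b, and at 5.6 and 10.8, near the floor, for Fzd7. Fzd2 was 2.31-fold higher in tumour 1 on its brightest probe set and 2.09-fold lower on another. Tumour 2 is the array with the Actb ratio of 93.1 against 11.3 in tumour 1, where Gapdh gave 15.4 against 10.6, and skeletal muscle markers were brighter in tumour 1. Their part in these differences was not tested.

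An antisense transcript beside Fzd10, Fzd10os, is no member by its symbol, and its brighter probe set read 575.7 and 328.7 in epidermis and 160.0 and 126.2 in the tumours, the same direction as Fzd10. Fzd10os was named after its values were seen. Whether the labelling separates the strands is not given in the sources used here.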
